A study of Mus musculus with 5 samples.

Results

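The transcripts described here come from 584 places in the mouse genome that were assembled from the sequencing reads as spliced RNAs and that hold no transcript of the Ensembl reference. A place, or locus, is 1 gene identifier (a name starting with MSTRG) given by the assembler StringTie. It was kept where none of its transcripts is an Ensembl transcript, at least 1 of its transcripts has 2 or more exons, and the summed level of its transcripts averages at least 0.1 TPM over the 5 libraries. TPM, the unit of level used by StringTie, is corrected for transcript length and sums to the same total in each library. The files hold 55981 loci, of which 2760 have no Ensembl transcript. Of these, 626 are spliced at any level and 42 lie under the minimum, which leaves 584 loci with 907 transcripts. The members were thus chosen by their mean TPM over all 5 libraries and by their exon number, so neither their presence above 0.1 TPM nor their having an intron is a result.

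GL261 is a mouse glioma cell line grown in culture. The series asked which transcripts differ in these cells after the short-chain fatty acid salt sodium propionate, with sodium chloride as the salt control, each labelled as 1 uM for 24 h. Bulk RNA sequencing gave 3 chloride libraries (replicates 1, 2 and 3) and 2 propionate libraries (replicates 2 and 3). All 5 are the same line, for which the labels name no other treatment or genetic change. The labels do not say whether the replicates were separate cultures, so p-values measure only the spread between these libraries. Of 10 glial and glioma markers, 9 averaged at least 1 TPM. Of the markers of other cell types, Itgam (myeloid cells), Cdh5 and Kdr (endothelium), Rbfox3 and Snap25 (neurons) and Lum (fibroblasts) were listed at 0 in all libraries. Cd68 (myeloid cells, mean 8.61 TPM) and Col1a1 (fibroblasts, mean 4.95 TPM) were above 1 TPM, and the other 7 had means above 0 and under 1 TPM, the highest being Csf1r at 0.247 TPM. Total coverage was 6.53 to 7.03 Gb per library, and 1 TPM stood for a mean coverage of 4.73 to 4.99 reads per base.

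Most of a mammalian genome that is transcribed outside protein-coding genes gives long non-coding RNAs, transcripts of endogenous retroviruses and other repeats, and RNAs that start from the same promoter region as a coding gene but run the other way. An assembler joins aligned reads into exons and places introns where reads skip a stretch of genome. A locus with an intron is therefore less likely than a single block of reads to be unspliced precursor RNA or genomic DNA, although a short gap in the alignment can look like an intron.

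Some of these loci are known to another catalogue. A total of 178 members (30.5%) overlapped, on either strand, a RefSeq gene whose name the files do not hold, and for 159 of these it was a long non-coding RNA. For 80 members a RefSeq start on the same strand lay within 1000 bases of the assembled start, and for 40 within 100 bases. Promoter windows from RefSeq (build GRCm38.p6, 250 bases before to 50 after the RefSeq start) are printed for 3 of them, to show how far assembled and catalogued starts agree at 2 loci and where they part at 1. Capitals mark the bases from the assembled start onward. The windows lie at chr2:170673789-170674088 (minus strand), chr5:104571422-104571721 (plus strand) and chr17:35000697-35000996 (minus strand).
MSTRG.13816, RefSeq Gm40003: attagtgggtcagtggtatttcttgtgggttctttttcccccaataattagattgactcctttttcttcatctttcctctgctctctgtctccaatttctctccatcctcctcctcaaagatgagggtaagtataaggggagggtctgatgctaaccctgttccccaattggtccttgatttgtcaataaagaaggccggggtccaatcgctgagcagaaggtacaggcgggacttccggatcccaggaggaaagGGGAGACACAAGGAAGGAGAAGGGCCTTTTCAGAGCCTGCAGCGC
MSTRG.17671, RefSeq Zfp33b: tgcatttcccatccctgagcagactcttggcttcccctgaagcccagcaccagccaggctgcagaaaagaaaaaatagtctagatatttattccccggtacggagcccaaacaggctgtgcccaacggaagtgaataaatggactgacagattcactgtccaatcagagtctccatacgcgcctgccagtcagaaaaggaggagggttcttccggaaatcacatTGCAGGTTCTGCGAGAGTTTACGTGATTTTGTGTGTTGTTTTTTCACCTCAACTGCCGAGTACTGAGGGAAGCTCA
MSTRG.9900, RefSeq D17H6S56E-5: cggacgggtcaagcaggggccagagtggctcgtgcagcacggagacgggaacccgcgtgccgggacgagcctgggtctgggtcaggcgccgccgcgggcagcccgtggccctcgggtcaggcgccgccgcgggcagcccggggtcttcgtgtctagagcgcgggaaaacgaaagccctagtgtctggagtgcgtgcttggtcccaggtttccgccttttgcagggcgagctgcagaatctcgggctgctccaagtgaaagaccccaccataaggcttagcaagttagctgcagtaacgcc

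In the first window 45 bases are in capitals, since the assembled start of MSTRG.13816 lay 5 bases from the RefSeq start. In the second, 76 bases are in capitals and the starts lay 26 bases apart. The third has none, because MSTRG.9900 starts 401 bases downstream of the RefSeq start, outside the window. The window of MSTRG.9900 is rich in CG dinucleotides, with 29 of them and a GC content of 67%, against 5 and 49.3% at MSTRG.13816 and 9 and 49.3% at MSTRG.17671. The medians were 8 CG dinucleotides and 53.3% over the 80 member windows and 7 and 52.7% over all 32817 windows.

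Short letter patterns, 4 in all, were searched on both strands of the 80 windows. TATAAA, the core of the TATA box, was found in 10 windows (12.5%), against 13.6% of all windows. CCAAT was found in 33 (41.2%), against 37.4%. GGGCGG, a GC box, was found in 25 (31.2%), against 35.6%. TGANTCA, the letters of an AP-1 site with N for any base, was found in 3 (3.75%), against 7.81%. At 80 windows, 1 window is 1.25%. In 10 of the 80 windows (12.5%) a run of 20 bases recurred in the windows of at least 5 other genes, which is a mark of repeated sequence, against 11.7% of all windows. One of them is the window of RefSeq Gm41479 at MSTRG.9107, where such a run recurred in the windows of 20 other genes.

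The loci were short, with few exons. In 406 members (69.5%) the longest exon chain had 2 exons, in 104 it had 3, in 44 it had 4 and in 30 it had 5 or more. The span on the genome had a median of 5407 bases (quartiles 1988 and 10835) and ran from 255 to 319479 bases. The spliced length of the main transcript, the one with the highest summed level among a locus's spliced transcripts, had a median of 1043 bases. Its longest intron had a median of 2036.5 bases and ran from 21 to 311046 bases. In 49 members that longest intron was under 70 bases, a size at which a gap in the alignment cannot be told apart from an intron here. A single transcript was assembled for 409 members, and 295 members lay on the plus strand against 289 on the minus strand.

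**Figure D1:**
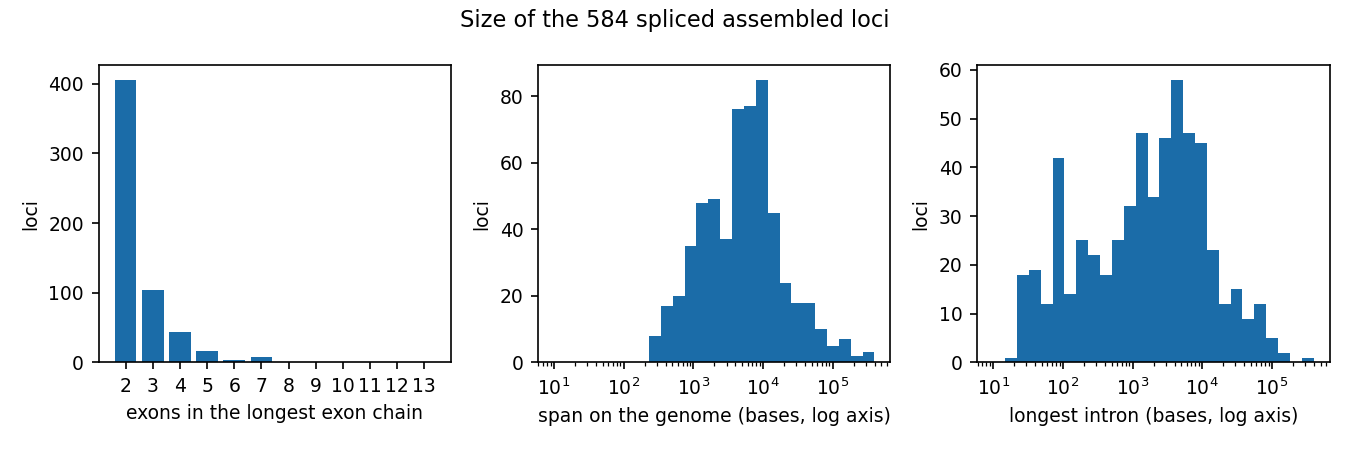
Histograms over the 584 loci of the exon number of the longest exon chain, the span on the genome and the longest intron of the main transcript, the last 2 in bases on a log axis. Loci with 2 exons make up 406 of the 584, and the intron lengths form a main peak between 1000 and 10000 bases and smaller peaks under 100 bases.

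For comparison, the 13077 protein-coding genes with a spliced transcript that passed the same minimum had a median of 9 exons and a span of 24389 bases, and the 2355 spliced reference long non-coding genes a median of 3 exons and 7435 bases. The 1895 assembled loci with a single exon had a median span of 386 bases.

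The reads did not cover all exons alike. In 424 members each exon of the main transcript had coverage in all 5 libraries, and in 4 members no library covered all exons. The ratio of the least to the most covered exon had a median of 0.484 over 583 members. In 544 members the spliced transcripts carried all of the locus's TPM. In 15 they carried under 10%, so that the level and change of those loci describe mostly a single-exon transcript of the same locus.

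The most exons were found in MSTRG.24451, on the plus strand of the scaffold JH584304.1 (5045 to 52142), with 13 exons in 1 transcript. Chloride libraries gave 8.73, 7.23 and 7.78 TPM and propionate libraries 7.57 and 8.04 TPM, so the groups overlapped. The nearest reference gene, AC149090.1, lay 48 bases away. MSTRG.15696, on the minus strand at chr4:56389832-56709310, had up to 9 exons and the longest span of all members, 319479 bases. It overlapped the RefSeq genes Gm34628, Gm34687 and Gm52740, which RefSeq lists apart. Its levels were 5.73, 4.43 and 5.83 TPM with chloride and 3.79 and 4.44 TPM with propionate.

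MSTRG.17671 (chr5:104571646-104638471, plus strand) had 7 exons and starts beside the RefSeq gene Zfp33b, named as a zinc finger protein gene. It also overlaps the RefSeq genes Gm31255 and Gm45931. Its levels, 13.1, 13.0 and 10.6 TPM against 10.3 and 11.6 TPM, overlapped between the groups. Exons 2 and 5 of this locus are both 127 bases long and exons 3 and 6 both 61 bases long, so its exon chain repeats a pattern of lengths. Exons 5, 6 and 7, beyond an intron of 52352 bases, had mean coverages of 7.54, 4.23 and 3.01 reads per base. Exons 1 to 4 had 17.8, 33.2, 42.0 and 54.4. MSTRG.9881 (chr17:34543654-34561590, plus strand), also with 7 exons, runs antisense to exons of the pseudogene Btnl7-ps. It varied within the chloride group, at 6.59, 14.1 and 10.5 TPM, and both propionate values, 8.10 and 11.4 TPM, lay inside that range.

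The other long loci were MSTRG.21852 (chr8:19693928-20008384, plus strand, 314457 bases), MSTRG.19330 (chr6:89991601-90295556, plus strand, 303956 bases) and MSTRG.14980 (chr3:110922384-111186986, minus strand, 264603 bases, 7 exons). MSTRG.21852 has only 2 exons, with 311046 bases between them. It measured 4.55, 4.32 and 3.91 TPM with chloride and 3.61 and 3.72 TPM with propionate. MSTRG.19330 spans a cluster of vomeronasal receptor genes (pheromone receptors such as Vmn1r47 and Vmn1r54). The more abundant of its 2 transcripts lies only at chr6:89991601-89995225, at the start of that span, so the level does not describe an RNA across the cluster. The locus was at 13.8, 13.1 and 14.6 TPM with chloride and 16.6 and 18 TPM with propionate. Neither locus has overlapping groups, and neither passed the test described below, with limma adjusted p of 0.636 and 0.26. MSTRG.14980 was at 1.64, 2.34 and 2.28 TPM against 1.96 and 2.41 TPM.

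By position, 265 members (45.4%) lay between reference genes. Of these, 133 were within 10000 bases of one, 17 were over 100 kb away, and the median distance was 9862 bases. A further 177 (30.3%) lay over a gene body on its opposite strand without touching its exons, 87 (14.9%) overlapped exons on the opposite strand, and 55 (9.42%) lay over a gene body on the same strand outside its exons. In 75 members the assembled start lay within 1000 bases of the start of a gene running the other way, at a median of 143 bases. The 4 classes of position had similar median levels, from 1.67 TPM for those antisense to exons to 2.01 TPM for those between genes.

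Members lay on each chromosome of the nuclear genome. Chromosome 2 held 45, and chromosomes 4, 8 and 10 held 42 each, while chromosome 9 held 10 and chromosome 12 held 9. Set against the 15951 reference genes with a spliced transcript that were tested, there were 3.66 members per 100 genes, from 1.17 on chromosome 9 to 5.53 on chromosome X among the autosomes and X. The Y chromosome had 9 members and only 4 such reference genes. Its members had a median level of 28.2 TPM. Their most abundant one was MSTRG.25382, at 70.9, 60.9 and 75.1 TPM with chloride and 90.7 and 92.2 TPM with propionate. Unplaced or unlocalized scaffolds held 7 members.

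Some members had introns of exactly the same length. Among the 365 members whose longest intron is at least 1000 bases, 22 shared that length with another member, in 11 lengths. One of these pairs, MSTRG.13463 and MSTRG.13464 with 4513 bases, overlaps on opposite strands at 1 place, and the others lie at different places. On the Y chromosome, MSTRG.25386 and MSTRG.25391 each had an intron of 5297 bases, with spliced lengths of 547 and 541 bases and mean levels of 29.8 and 30.9 TPM. MSTRG.12923 on chromosome 2 and MSTRG.2081 on chromosome 10 each had an intron of 3095 bases. A pair of short introns was alike too: MSTRG.11936 on chromosome 19 and MSTRG.22024 on chromosome 8 each had an intron of 33 bases and spliced lengths of 2076 and 2068 bases. Whether the members of such a pair share sequence was not tested. Where copies are nearly identical, the division of reads among them is uncertain.

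Most members were low. Their mean level had a median of 1.94 TPM (quartiles 1.32 and 4.0) and ran from 0.103 to 2630 TPM. A mean of at least 1 TPM was found for 499, at least 10 TPM for 63 and at least 100 TPM for 11, and 85 were under 1 TPM. In 531 members the level was above 0 in all 5 libraries. The median of the members lay above that of the spliced reference long non-coding genes (0.505 TPM) and the single-exon assembled loci (1.37 TPM) and below that of the spliced protein-coding genes (10.7 TPM). An RNA has to be covered to be assembled from these reads, so the comparison with reference genes is not of like with like.

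Just inside the minimum lay MSTRG.13894 (mean 0.103 TPM), MSTRG.13890 (0.112 TPM) and MSTRG.8130 (0.134 TPM). Just outside it lay MSTRG.3776 (0.0979 TPM), MSTRG.20067 (0.0838 TPM) and MSTRG.11195 (0.0573 TPM). Of these 6 loci, 4 run antisense to exons of 2210418O10Rik, Tab1, Pitpna and Nova2.

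Summed over all members, the level was 9595, 9043 and 8579 TPM with chloride and 10638 and 11849 TPM with propionate. Both propionate sums lay above the 3 chloride sums, at 1.24 times the chloride mean. This is 0.858% to 0.960% of all TPM with chloride and 1.06% and 1.18% with propionate. The 4 most abundant loci held 63.4% of the sum and most of the difference: together they measured 5515 ± 564 TPM (SD, n = 3) with chloride and 7495 ± 618 TPM (SD, n = 2) with propionate. The other 580 summed to 3558 ± 65.6 TPM and 3749 ± 238 TPM, a ratio of 1.05. In a bulk sample, more RNA per cell and more cells with the RNA cannot be told apart. Small RNAs took 408483 to 462736 TPM of each library, the lowest share being that of propionate replicate 3, which also had the highest summed level of the other 580 loci (3917 TPM), and the part of that share in these sums was not tested.

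The most abundant locus was MSTRG.23240, on the minus strand at chr8:123428731-123434529 (3 exons). It measured 2568, 2274 and 2111 TPM with chloride and 2890 and 3305 TPM with propionate. Opposite to it, on the plus strand at chr8:123425802-123432244, lies MSTRG.23239 with 2 exons, at 2045, 1721 and 1554 TPM with chloride and 2277 and 2528 TPM with propionate. Both propionate libraries lay above all chloride libraries at each of them, by 0.42 ± 0.13 and 0.45 ± 0.14 (SE) on the log2(TPM + 0.1) scale, with limma adjusted p of 0.242 and 0.244. Within the chloride group the 2 loci ordered the libraries alike, replicate 1 highest and replicate 3 lowest.

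Both loci lie over the body of Def8, in a stretch near Mc1r where, as background, the C57BL/6 genome carries the endogenous ecotropic retrovirus Emv2. Whether the loci are that provirus was not tested. The level of Def8 itself was 34.8, 31.2 and 26.8 TPM with chloride and 34.3 and 35.8 TPM with propionate, far below that of the 2 loci. The middle exon of MSTRG.23240, 151 bases long, had a mean coverage of 16.8 reads per base, whereas the first exon had 21190 and the last 11444. The exon that joins the other 2 thus took a small part of the coverage.

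The next pair, MSTRG.1388 (minus strand, chr1:170941967-170943019) and MSTRG.1389 (plus strand, chr1:170941967-170947635), also overlapped on opposite strands, between reference genes. MSTRG.1388 was at 594, 753 and 695 TPM with chloride and 918 and 1225 TPM with propionate, with groups that did not overlap (log2 difference 0.65 ± 0.15, limma adjusted p 0.154). MSTRG.1389 was at 906, 691 and 633 TPM with chloride and 973 and 874 TPM with propionate, and chloride replicate 1 lay within the propionate range. Spliced transcripts carried 34.0% of the TPM of MSTRG.1388. Over those alone the log2 difference was 2.12 with a limma adjusted p of 0.0283. The first exon of its spliced transcript had a coverage of 454, 794 and 687 reads per base with chloride and 3069 and 2391 with propionate. The second exon, 54 bases long, had only 9.53, 13.5 and 10.9 with chloride and 56.0 and 52.2 with propionate. The spliced level thus rests almost wholly on the first exon, which partly overlaps the first exon of MSTRG.1389. How reads were divided there was not tested.

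**Figure D2:**
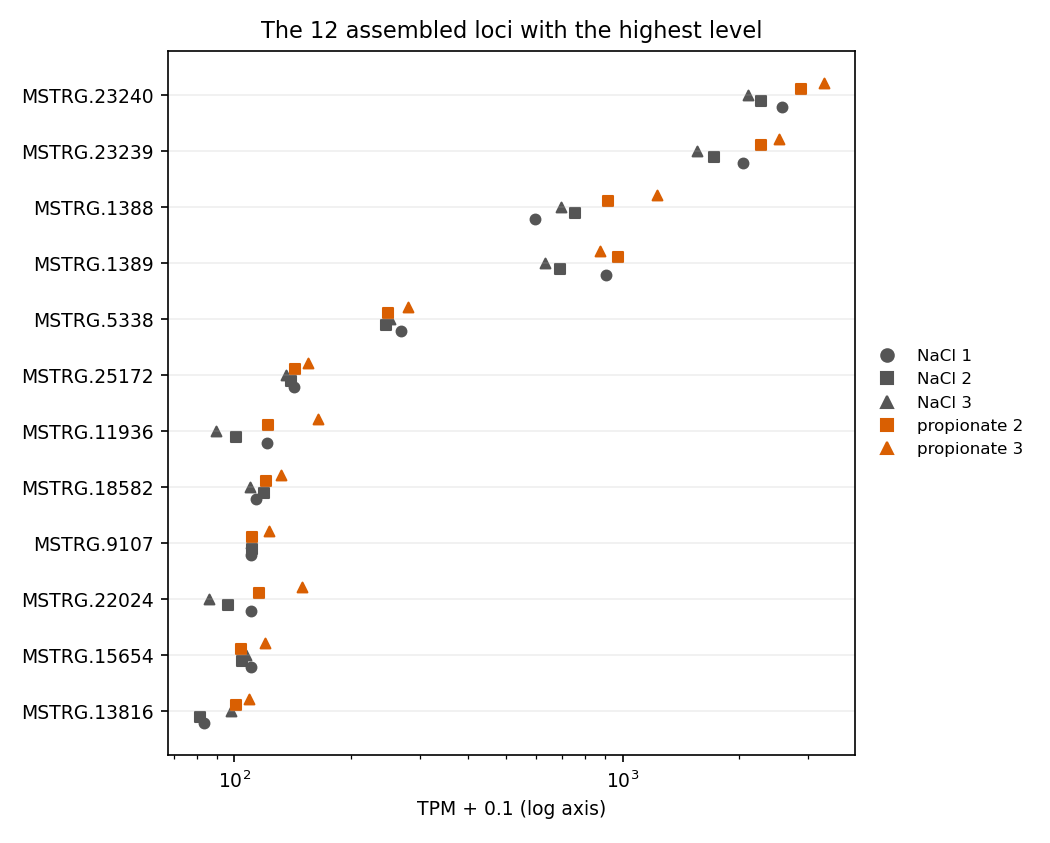
Level of the 12 most abundant loci in each library, in TPM plus 0.1 on a log axis, with chloride libraries in grey, propionate libraries in orange and a marker shape for each replicate number. The first 4 loci stand apart from the other 8, and at 9 of the 12 both orange points lie to the right of all grey points, at MSTRG.11936 and MSTRG.9107 by less than 1 TPM, against 14.4% of all features. The 12 include 2 pairs that overlap on opposite strands.

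Below these 4 the levels dropped to 259 TPM at MSTRG.5338 (chr12:92882997-92892337, minus strand), which lies 105428 bases from the nearest reference gene and overlaps RefSeq Gm40892. It measured 269, 246 and 252 TPM with chloride and 249 and 280 TPM with propionate, so the groups overlapped. MSTRG.25172 (chrX:143172602-143179669, plus strand) followed at 142, 140 and 136 TPM against 144 and 155 TPM. Next came the 2 loci with the same 33-base intron. MSTRG.11936 lies in the body of Grk5, a G protein-coupled receptor kinase gene, on chromosome 19. It was at 122, 100.8 and 89.7 TPM with chloride and 122 and 165 TPM with propionate. MSTRG.22024, 8846 bases from Zfp42, was at 110, 96.0 and 85.9 TPM with chloride and 116 and 150 TPM with propionate. Chloride replicate 1 was the highest chloride library at both, and replicate 3 the lowest. Spliced transcripts held all of the TPM of MSTRG.22024 but 17.7% of that of MSTRG.11936, whose levels therefore belong mostly to a single-exon transcript. Over its spliced transcripts, which were covered in 2 libraries, the log2 difference of MSTRG.11936 was 1.71 in place of 0.45, with a limma adjusted p of 0.876.

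MSTRG.18582 (chr6:12838677-12846990, plus strand, 8 transcripts) was at 114, 119 and 110 TPM with chloride and 121 and 132 TPM with propionate. MSTRG.9107, which matches RefSeq Gm41479 on chromosome 16, had the tightest chloride group of the 12, at 110 ± 0.383 TPM (SD, n = 3), and measured 111 and 122 TPM with propionate. MSTRG.15654, antisense to the body of the coronin gene Coro2a, was at 111, 105 and 107 TPM against 104 and 120 TPM, with overlapping groups. MSTRG.13816, whose start is printed above, was at 83.7, 81.3 and 98.2 TPM with chloride and 100.9 and 109 TPM with propionate. None of these 8 passed the test, and their adjusted p in limma ran from 0.258 to 0.874.

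StringTie was run with no strand option, although the library kit was stranded. Whether members that overlapped on opposite strands exchanged reads was not tested. There were 33 such members in 16 groups of overlapping loci. One such pair, singled out after its values were seen, is MSTRG.23687 and MSTRG.23688 in the body of the coronin gene Coro2b on chromosome 9. MSTRG.23687 (minus strand) was at 112, 32.6 and 86.8 TPM with chloride and 6.99 and 144 TPM with propionate, while MSTRG.23688 (plus strand) was at 0, 65.1 and 0 TPM and 153 and 11.3 TPM. Where one was high the other was low, in both groups; whether reads were divided between them differently in each library was not tested. Their sum was 112, 97.7 and 86.8 TPM with chloride and 160 and 156 TPM with propionate, higher in both propionate libraries (log2 difference 0.68 ± 0.11, limma adjusted p 0.0765). Of the 16 sums, 5 were higher and 3 lower without overlap of the groups, where 14.4% of all features were higher and 16.1% lower in this way. None of the 16 passed the test, which called 0.326% of all features.

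**Figure D3:**
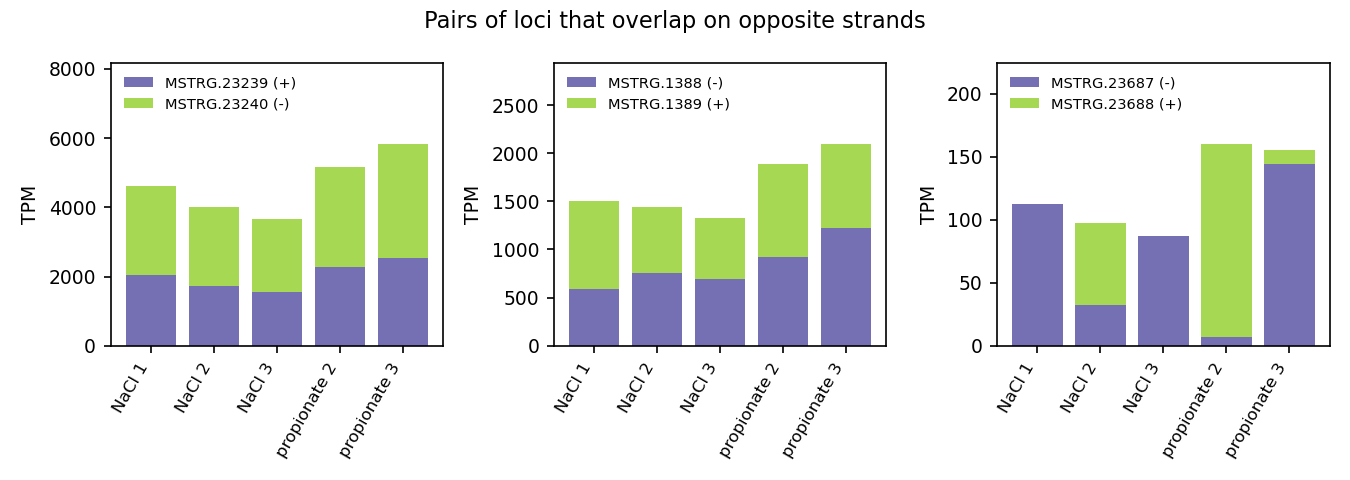
Stacked bars of the level in TPM of 3 pairs of loci that overlap on opposite strands, in each library, from 0. In the third pair the 2 colours trade places between libraries while the bar height is 86.8 to 112 TPM with chloride and 156 to 160 TPM with propionate.

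Each locus was compared between propionate and chloride with limma on log2(TPM + 0.1), in a fit over all 24224 genes and loci with a mean of at least 0.1 TPM. A locus passed at a Benjamini-Hochberg adjusted p under 0.05. No member passed: 0 of 584 were called higher and 0 lower, where 0.26% of all features were called higher and 0.0661% lower (0.326% in both directions). The smallest adjusted p of a member was 0.0547. At an unadjusted p under 0.05, 52 members (8.90%) were higher and 41 (7.02%) lower, against 6.45% and 6.72% of all features. The 52 include MSTRG.20811 and MSTRG.13386, listed at 0 in all chloride libraries, which passed the minimum of 0.1 TPM only through the propionate libraries. The count of 0 depends on the settings. With a minimum of 1 TPM the same test called 5 members higher and 1 lower, where it called 0.919% of all features higher and 0.322% lower. Among the 5 is MSTRG.21835, which reached that minimum only through the propionate libraries. Median-of-ratios scaling called 6 and 1 (0.764% and 0.268% of all features), TPM rescaled over protein-coding genes 6 and 1 (0.751% and 0.293%), and voom on estimated read numbers 19 and 5 (2.57% and 1.05%). The 6 called higher under each of the first 2 include MSTRG.20811, listed at 0 in all chloride libraries. That locus passed the minimum of 0.1 TPM only through the propionate libraries.

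Counted by groups that did not overlap, 98 members (16.8%) had both propionate values above all chloride values, against 14.4% of all features. A further 86 (14.7%) had them below, against 16.1%. The 98 include MSTRG.20811 and MSTRG.13386, listed at 0 in all chloride libraries, which passed the minimum of 0.1 TPM only through the propionate libraries. The groups overlapped at the other 400. The median log2 difference was -0.04 over the members and -0.02 over all features, with 272 members above 0 and 312 below. By position, 58 of the 265 members between genes (21.9%) were higher without overlap and 38 (14.3%) lower, whereas of the 177 over a gene body on its opposite strand 18 (10.2%) were higher and 31 (17.5%) lower. Of the 87 that overlap exons on the opposite strand 15 (17.2%) were higher and 11 (12.6%) lower, and of the 55 on the same strand 7 (12.7%) and 6 (10.9%). These shares were not tested against each other.

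**Figure D4:**
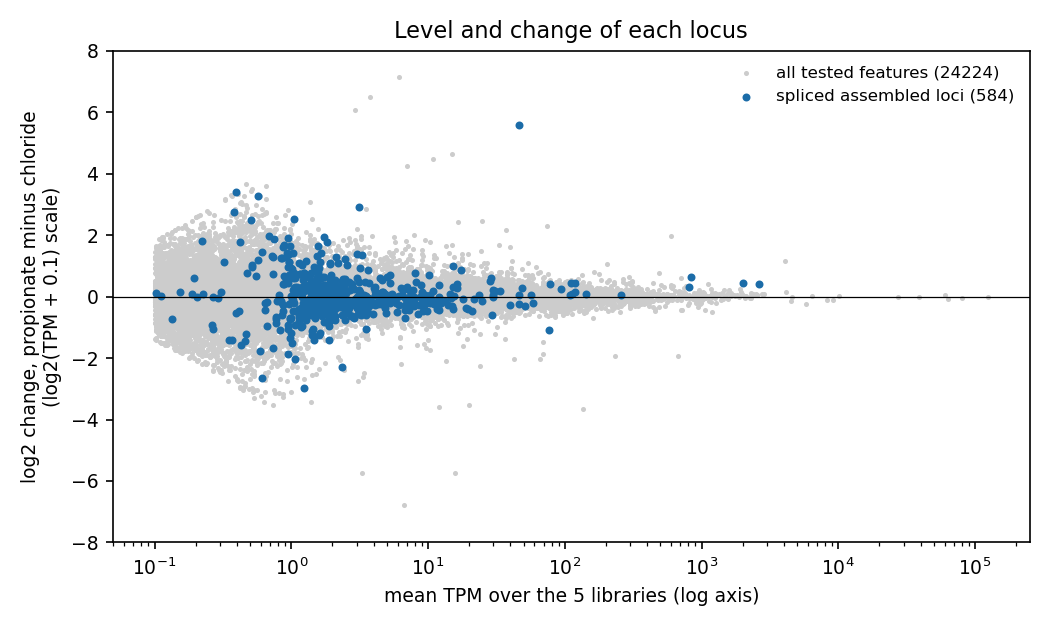
Log2 difference between propionate and chloride, on the log2(TPM + 0.1) scale, against the mean level in TPM on a log axis, for all 24224 tested features (grey) and the 584 spliced assembled loci (blue). The blue points lie mostly near 1 to 4 TPM, on both sides of 0, and the highest blue point, at 5.59, is MSTRG.23688, listed at 0 in 2 of the 3 chloride libraries.

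Of the 5 members with the smallest p above 0, all but 1 were under 10 TPM. MSTRG.11196 (chr19:4065187-4065960, plus strand, 5618 bases from Gstp3, a glutathione transferase gene) was at 0.309, 0.340 and 0.226 TPM with chloride and 1.77 and 2.59 TPM with propionate. The groups did not overlap (2.53 ± 0.36, limma adjusted p 0.0547; the log2 difference was 1.29 with a pseudocount of 1 TPM). Its mean read coverage stood for 3.55 kb of aligned bases per library. MSTRG.20811 (chr7:80837943-80838390, minus strand, 11969 bases from Iqgap1) was listed at 0 in all chloride libraries and at 0.772 and 1.19 TPM with propionate. It passed the minimum of 0.1 TPM only through the propionate libraries, so its difference is given without a test. Its first exon was covered only in propionate replicate 3, at 0.0593 reads per base, so both exons were covered in 1 library only. MSTRG.13386 on chromosome 2 was also listed at 0 in all chloride libraries, and at 0.144 and 1.77 TPM with propionate, and it passed the minimum in the same way.

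MSTRG.25387 on the Y chromosome (chrY:30771565-30772886, minus strand) was at 24.9, 25 and 22.2 TPM with chloride and 36.6 and 36.4 TPM with propionate (0.60 ± 0.09, limma adjusted p 0.0655). Spliced transcripts held 1.69% of its TPM, and they were above 0 only in chloride replicate 3, so this difference belongs to a single-exon transcript. It overlaps MSTRG.25386 on the other strand, and the sum of both was 60.9, 44.9 and 49.4 TPM against 60.3 and 78.4 TPM, with groups that overlapped.

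MSTRG.21835 (chr8:17573837-17624558, minus strand, 3 exons, 38251 bases from Csmd1) overlaps the RefSeq gene Gm39137. It was at 0.543, 0.960 and 0.831 TPM with chloride and 2.92 and 3.49 TPM with propionate (1.94 ± 0.31, limma adjusted p 0.0693). MSTRG.10338 (chr17:73054794-73083963, minus strand, 5 exons, 24022 bases from the acyltransferase gene Lclat1) overlaps RefSeq Gm41616. It was at 2.23, 1.63 and 1.54 TPM with chloride and 4.48 and 5.14 TPM with propionate (1.38 ± 0.23, limma adjusted p 0.074). Each exon of both loci was covered in all 5 libraries. With a minimum of 1 TPM, MSTRG.10338 passed, at a limma adjusted p of 0.0358. MSTRG.21835 reached that minimum only through the propionate libraries, since all its chloride values were under 1 TPM. Its difference at that minimum is therefore given without a test. MSTRG.21835 overlaps the member MSTRG.21836 on the other strand, and the sum of both was 1.28, 3.30 and 1.03 TPM with chloride and 4.98 and 7.34 TPM with propionate (limma adjusted p 0.172).

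On the lower side, MSTRG.9900 had the smallest p. It lies at chr17:34996647-35000345 on the minus strand, matches RefSeq D17H6S56E-5, and starts 642 bases from Vars, the gene of the valyl-tRNA synthetase, which runs the other way. It measured 35.2, 31.6 and 34.8 TPM with chloride and 21.3 and 23.5 TPM with propionate, so both propionate values lay below all chloride values (-0.60 ± 0.10, limma adjusted p 0.0725, and 0.0443 with a minimum of 1 TPM). Vars itself was at 47.8, 54.9 and 47.2 TPM with chloride and 31.5 and 39.7 TPM with propionate (-0.50 ± 0.13, limma adjusted p 0.17), with the 2 groups again apart. Of the 5 on this side, MSTRG.9900 was the most abundant.

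MSTRG.2081 and MSTRG.12923, which share the intron length of 3095 bases, were both lower. MSTRG.2081, 5717 bases from P4ha1 (a collagen prolyl hydroxylase subunit), was at 17.1, 17.5 and 16.3 TPM with chloride and 12.8 and 12.7 TPM with propionate. MSTRG.12923, antisense to Gm13710, was at 20.9, 23.6 and 21.1 TPM with chloride and 15.7 and 17.0 TPM with propionate. The log2 differences were nearly the same, -0.41 ± 0.10 and -0.42 ± 0.10, with limma adjusted p of 0.157 and 0.168. P4ha1 differed by 0.13 ± 0.10, with overlapping groups. Gm13710 was at 5.70, 5.75 and 5.78 TPM with chloride and 3.58 and 4.99 TPM with propionate. Its groups did not overlap (-0.43 ± 0.18, limma adjusted p 0.363).

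MSTRG.18654, antisense to the body of Snd1 (a nuclease and transcription co-activator), was at 22, 26.3 and 22.2 TPM with chloride and 16.7 and 17.2 TPM with propionate (-0.46 ± 0.11, limma adjusted p 0.161), beside Snd1 at 166 ± 3.46 TPM (SD, n = 3) and 173 ± 24.8 TPM (SD, n = 2). The first exon of the main transcript of MSTRG.18654, 64 bases long, had a mean coverage of 1.27 reads per base. Its second, 9295 bases long, had 98.2, and both exons were covered in 3 libraries only. MSTRG.24163, antisense to the body of the RNA-binding protein gene Rbm6, was at 1.10, 1.77 and 1.29 TPM with chloride and 0.548 and 0.313 TPM with propionate (-1.50 ± 0.37, limma adjusted p 0.162; the log2 difference was -0.74 with a pseudocount of 1 TPM). Its only intron is 28 bases long.

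**Figure D5:**
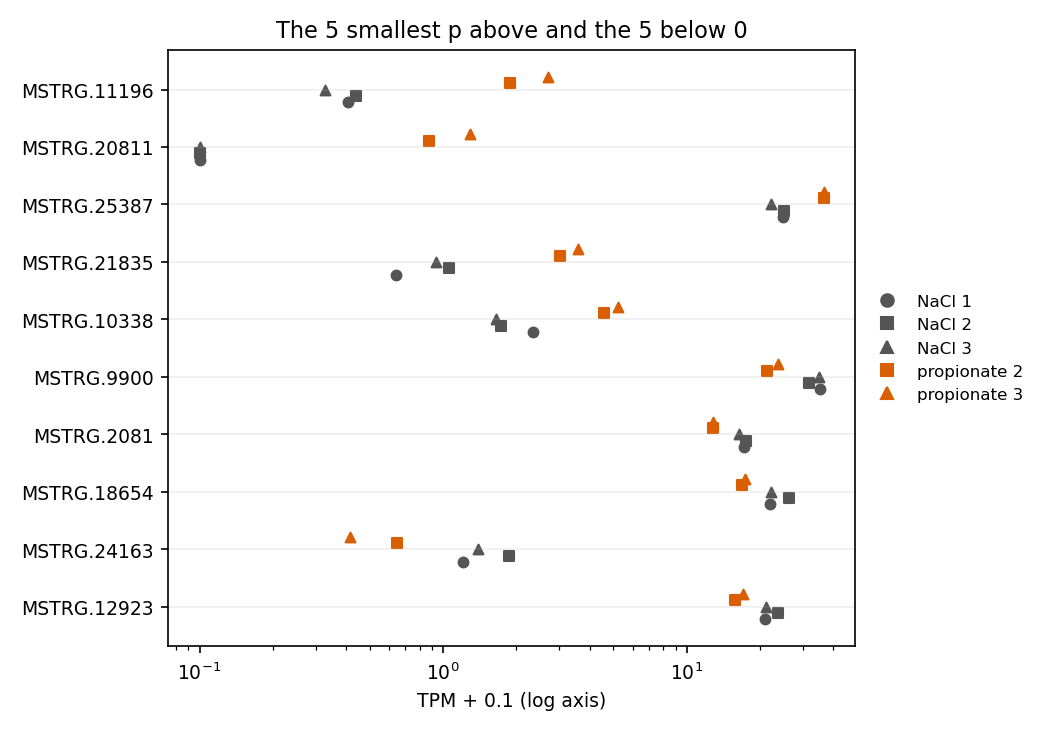
Level in each library, in TPM plus 0.1 on a log axis, of the 5 loci with the smallest p among those higher with propionate and the 5 among those lower. At each of the 10 the orange propionate points lie apart from the grey chloride points, although none passed the test. The loci were chosen by p, so this separation is not a result. MSTRG.20811, at 0 in all chloride libraries, passed the minimum of 0.1 TPM only through the propionate libraries.

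The members were also set beside the genes they face. For 84 members that overlap exons on the opposite strand, the log2 difference of locus and gene had the same sign in 54 of 91 pairs, with a Pearson correlation of 0.21 across pairs. For 71 pairs of divergent starts the sign was the same in 40, with a correlation of 0.07. The pairs share libraries and may share reads, so both values are descriptions. Among the genes facing members over exons 1 was called, and among those at divergent starts 0, where 0.326% of all features were called. The called gene was Osmr, the oncostatin M receptor gene, at -0.92 (limma adjusted p 0.0477). MSTRG.7599 on its other strand was at 1.51, 2.41 and 2.45 TPM with chloride and 0.861 and 0.853 TPM with propionate, a log2 difference of -1.19 with a limma adjusted p of 0.168. This locus was singled out after its values were seen.

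Spread between replicates was larger for these loci than for coding genes. The median SD of log2(TPM + 0.1) over the chloride libraries was 0.327 for the members, 0.428 for single-exon assembled loci, 0.440 for spliced reference long non-coding genes and 0.131 for spliced protein-coding genes. The summed level of 6 immune markers was 6.56 to 7.94 TPM with chloride and 10.4 to 12.2 TPM with propionate, nearly all of it Cd68, and that of 3 fibroblast markers 2.53 to 3.39 TPM and 6.60 to 9.14 TPM, nearly all of it Col1a1. Their part in the differences above was not tested.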

How the data were processed

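Total RNA from GL261 cells was made into libraries with a stranded total RNA kit, per the labels' protocols. HISAT2, StringTie, fastp, bcl2fastq and the mm10 build are named, without versions, in the submitters' processing notes. Per the file headers, the authors ran StringTie 2.1.1 on each library against 1 merged annotation, with no strand option, and the deposited attributes are TPM, FPKM and coverage per transcript, with no read counts. The files list 157895 transcripts, of which 15415 were assembled from the reads. Coverage times length served as aligned bases, which had a median of 13.1 kb per member and library.

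From these deposited values, TPM was summed per locus. Reference genes, joined through GENCODE M21, were summed over their Ensembl transcripts and 12224 assembled transcripts of the same locus and strand. Features with a mean of at least 0.1 TPM were tested with limma 3.58.1 (R 4.3.3; lmFit, eBayes with a trend) on log2(TPM + 0.1), two-sided, with treatment as the single term, Benjamini-Hochberg adjustment over all 24224 features and an adjusted p under 0.05. Differences on this scale understate the change of low loci. Normal values were simulated for groups of the same size from the fitted means and spreads, with changes planted in features drawn from all 24224. Of these, 42 of 100 changes of 1 and 59 of 100 changes of 2 on the log2 scale were recovered, with 5 false calls. The median chloride SD on the log2 scale was 0.327 for members and 0.211 for all features, so these shares need not hold for the members.

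Named loci are the 12 most abundant members, the 5 smallest p in each direction, the 4 with most exons and the 4 longest (MSTRG.15696 is in both; equal exon numbers were ordered by level), the 3 nearest the minimum on each side, and those at 0 in 1 group; others named were chosen after their values were seen. The members, lists and rules were chosen with earlier results of these data known. No genome sequence of this build was used, so intron ends, repeats and reading frames were not analysed here. Alternatives covered the pseudocount, minimum, unit, scaling, features, replicates and a replicate block, and, chosen after seeing the data, sums over overlapping members. Promoter windows are from RefSeq.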

Additional observations from a re-analysis of the deposited data

How the results depend on the processing

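The count of members called, 0 higher and 0 lower, became 5 and 1 with a minimum of 1 TPM (499 members tested), 2 and 1 with FPKM (581 tested), 6 and 1 with median-of-ratios scaling, 6 and 1 with TPM rescaled over protein-coding genes, 19 and 5 with voom on aligned bases, 1 and 0 over spliced transcripts only, and 2 and 0 with gene identifiers as features. It stayed at 0 with a pseudocount of 1 TPM, with no minimum, with any 1 library left out, with the replicate block and with overlapping members summed. MSTRG.21835 among the 5, and MSTRG.20811 among the 6 of both scalings, passed the minimum in use only through the propionate libraries. Over all features, 63 higher and 16 lower became 143 and 50 with the minimum of 1 TPM, 3 and 2 with no minimum, 108 and 42 with FPKM, 622 and 254 with voom, 200 and 78 with TPM rescaled over protein-coding genes, and 185 and 65 with median-of-ratios scaling. Over spliced transcripts only they were 62 and 15 of 24224 features, and with gene identifiers 92 and 26 of 22911. A pseudocount of 1 TPM gave 45 and 9. With 1 library left out the counts were 0 to 5 higher and 0 to 3 lower. Without a propionate library the lone one is assumed to vary like the chloride group. The cause was not tested.

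The replicate numbers 2 and 3 occur in both groups, but same-numbered libraries did not deviate together (correlations -0.042 and -0.047). The 2 propionate libraries deviate from their mean by equal and opposite amounts, so these correlations are not independent. Whether the numbers mark something shared cannot be told from them. With the replicate block, 1 feature was higher and 1 lower, and no member was called. With at least 3 exons as the rule, there would be 178 members. With 1 library left out, the log2 difference of MSTRG.5338 ran from -0.039 to 0.13 and that of MSTRG.15654 from -0.046 to 0.16, both lowest without propionate replicate 3 and highest without propionate replicate 2. That of MSTRG.25387 became -1.56 over its spliced transcripts, which were above 0 in 1 chloride library only. The median log2 difference and the ratio of summed levels moved by less than the spread between libraries under each alternative run. Depth limits loci near 0.1 TPM, where less than 1 read covers a base on average.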
